A study of Mus musculus with 2 samples.

Results

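The 63 genes described here code for proteins of the splicing machinery: the SR proteins (*Srsf*), the heterogeneous nuclear ribonucleoproteins or hnRNPs (*Hnrnp*), the proteins of the small nuclear ribonucleoproteins or snRNPs (*Snrp*), the U2 snRNP factors SF3A and SF3B (*Sf3*) and the numbered pre-mRNA processing factors (*Prpf*). They were chosen by symbol. The count tables list 21878 symbols. Of these, 65 begin with *Srsf*, *Hnrnp*, *Snrp*, *Sf3a*, *Sf3b* or *Prpf*, followed by a digit where the family is numbered, and 63 reached the minimum of 20 counts in the sum of both libraries. The remaining pair were *Snrpn*, for a close relative of the SmB protein, with 0 counts in either library, and *Srsf12*, with 0 counts in the TSA library and 9 in the untreated library. A count of 0 allows up to 3 counts in that library, for counting error only. The study asked how TSA acts in a c-Myc-driven liver cancer model. PolyA RNA of liver from FVB/N mice was sequenced, with 1 library for TSA treatment and 1 library without treatment. Both groups carry c-Myc, delivered by hydrodynamic injection, a rapid high-volume injection into a tail vein that brings DNA into hepatocytes. The labels give no dose, time or age, and do not say whether a library came from tumour or whole liver, from a single mouse or from a pool.

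Splicing removes introns from pre-mRNA. The U1 snRNP binds the start of an intron and the U2 snRNP its branch site, the U4/U6.U5 tri-snRNP then joins, and after rearrangement by helicases the RNA core of U2, U5 and U6 catalyses both cutting steps. SR proteins mostly bind exons and favour their inclusion, and hnRNPs often oppose them or package the transcript. MYC is known to raise transcription of several of these genes, among them *Srsf1*, *Hnrnpa1* and *Hnrnpa2b1*, and growing cells need more of this machinery than resting hepatocytes.

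The libraries held 17088227 counts (TSA) and 17281523 counts (untreated), and differences between them have no replicate check. Ratios are TSA over untreated after TMM scaling, a method that assumes most genes do not differ; ratios under 1 are turned over and printed as folds below the untreated level. Calls go by size: a gene counts as lower or higher from 2-fold on, where its interval excludes 1. Intervals in parentheses are 95% exact binomial intervals, for counting error alone. The choice of scaling matters here: relative to scaling by total counts, TMM raises every log2 ratio by 0.85, and the median log2 ratio of the 13027 genes tested was -0.11 with TMM and -0.96 with total counts. Levels of cell type markers differed as well. All 8 markers of proliferating cells were lower with TSA (83.7 CPM summed in the TSA library, against 1906 CPM in the untreated library), and all 8 hepatocyte markers were higher (149733 CPM with TSA, against 4587 CPM without). Endothelial markers were higher in 7 of 8 cases (622 CPM with TSA, 118 CPM without), erythroid markers in 4 of 4 and neutrophil markers in 3 of 3. Of 8 macrophage markers 4 were higher and 1 lower, with stellate cell markers higher in 5 of 8 and lower in 1, bile duct markers higher in 3 of 5 and lower in 2, and lymphocyte markers higher in 3 of 5. With total counts hepatocyte markers were higher in 7 of 8 cases, endothelial markers in 4 of 8 and neutrophil markers in 2 of 3. Macrophage markers were then higher in 2 and lower in 3, and stellate cell markers higher in 4 and lower in 3. Bile duct markers were higher in 2 and lower in 2, and lymphocyte markers higher in 3 and lower in 1. Over all genes tested 26.0% were called higher and 27.4% lower with TMM, and 16.0% and 48.7% with total counts. *Ly6g* of neutrophils was at 0 in both libraries, and *Cftr* of bile ducts and *Hba-a2* of red cells were at 0 with TSA. In bulk tissue, fewer cells of a type and less RNA per cell cannot be told apart, and the part that these markers have in the ratios below was not tested. *Myc* itself had 763 counts in the TSA library and 55 in the untreated library. It was called higher with TSA under both scalings, at 25.3-fold (19.2 to 33.9) with TMM and 14.0-fold with total counts. Whether the injected copy adds to these counts was not tested.

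Most of these splicing genes were lower with TSA. All 63 had fewer counts in the TSA library. With total counts the ratio was below 1 for all 63, and also for 9293 of the 13027 genes tested. With TMM it was below 1 for 60 of the 63 and for 6910 of all genes tested. The 63 genes took 0.369% (0.366 to 0.372) of TSA counts, against 1.59% (1.58 to 1.59) of counts in the untreated library. By the size rule 45 of 63 were called lower and none higher, while 27.4% of all genes tested were called lower and 26.0% higher. With total counts 58 of 63 were called lower and none higher, against 48.7% and 16.0% of all genes. DESeq2 size factors and upper quartiles each called 45 lower and none higher, where 26.6% and 26.9% of all genes were lower and 26.6% and 26.4% higher. The median log2 ratio of the 63 genes was -1.41, and relative to all genes tested, a value that a common scaling factor does not move, it was -1.30. By rank, 59 of the 63 lay in the lower 50% of all genes tested and 41 in the lowest 25%, but 6 in the lowest 10%. At a 4-fold threshold 12 of 63 were lower and none higher, beside 12.6% and 15.0% of all genes. These genes were abundant: their median level was 12.9 FPKM in the TSA library and 58.4 FPKM in the untreated library, against 4.22 FPKM and 7.90 FPKM over all genes tested. Among genes with at least 1000 counts 44 of 60 were lower and none higher, beside 27.9% and 23.6% of all such genes; with total counts 56 of 60 were lower and none higher, beside 51.4% and 15.1%. In the 25% of tested genes with the highest untreated FPKM, a class set by a value that also enters the ratio, 40 of 53 were lower, beside 39.5% of all genes in it.

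**Figure D1:**
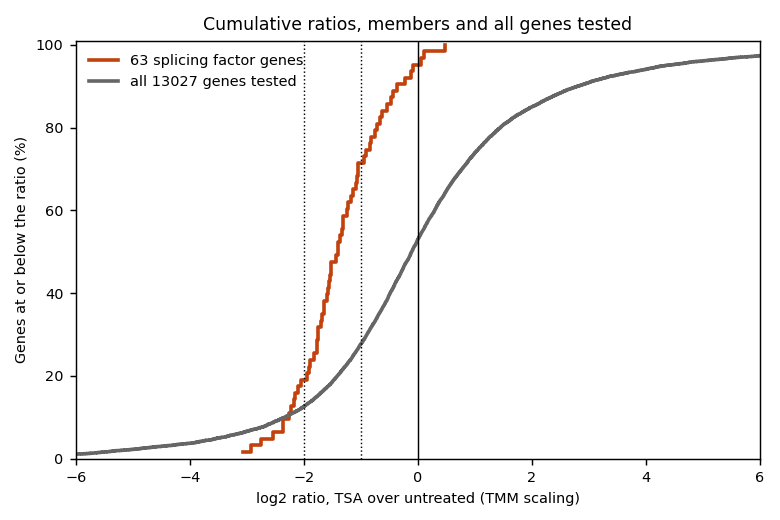
Cumulative distribution of log2 ratios, TSA over untreated with TMM scaling, for the 63 splicing factor genes and for all 13027 genes tested; the vertical axis is the percentage of genes at or below a ratio, and dotted lines mark 2-fold and 4-fold lower. The curve of the splicing genes is steep and lies left of the other at 2-fold, and it begins at a log2 ratio of -3.08, while the curve of all genes reaches further left.

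**Figure D2:**
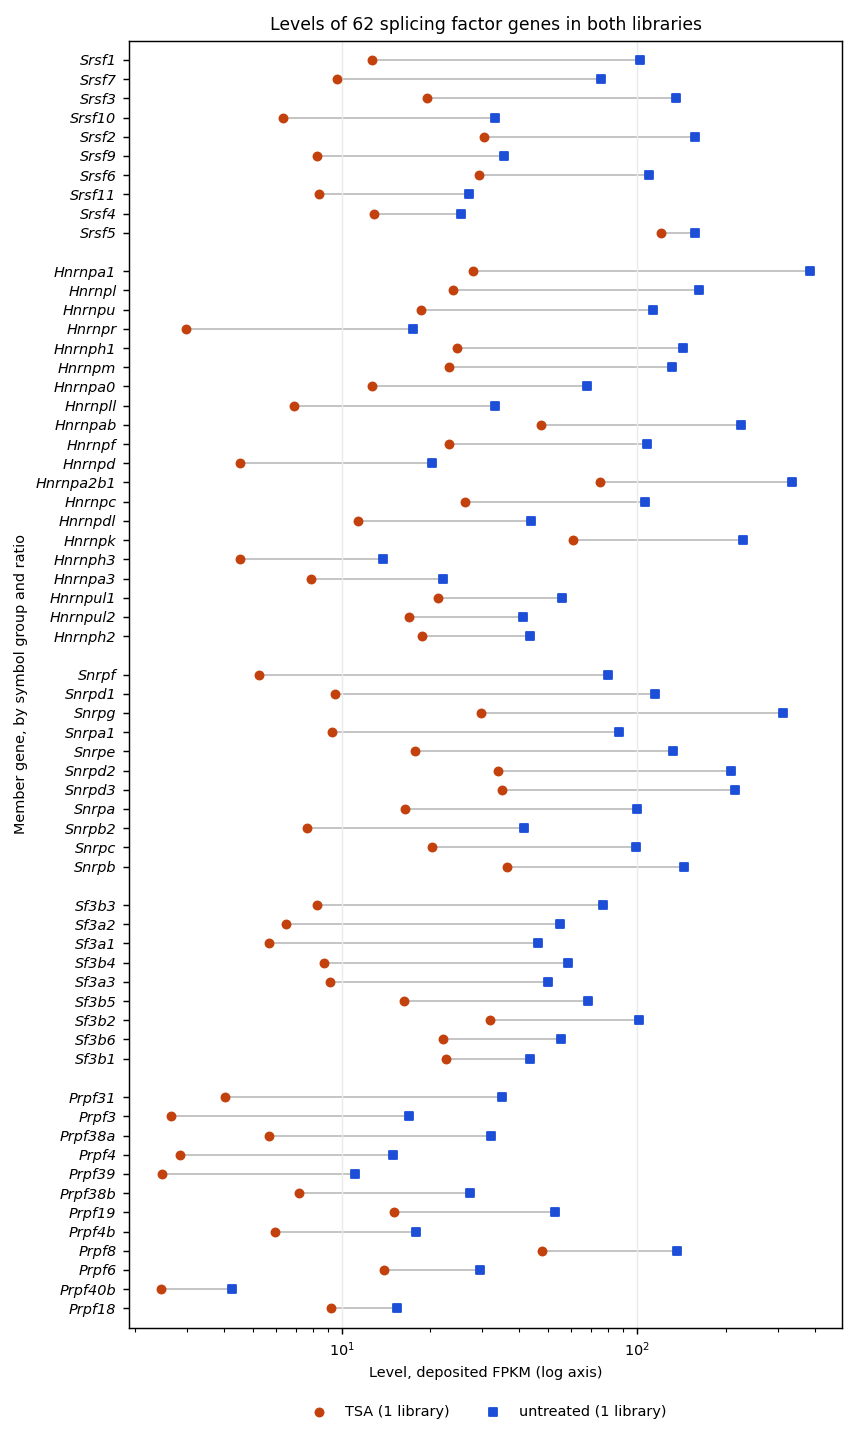
Level of 62 of the 63 genes in deposited FPKM on a log axis, in the TSA library (circles) and the untreated library (squares), with genes grouped by family and ordered by ratio. Every circle lies left of its square, and with total counts the ratio was below 1 for 9293 of the 13027 genes tested. The distance is shortest for *Srsf5* and longest for *Snrpf*.

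The Sm proteins and their snRNP partners were the family with the lowest median ratio. All 11 *Snrp* genes were called lower, with a median log2 ratio of -1.78, and together they took 0.0178% of TSA counts, against 0.116% of untreated counts. The Sm ring is made of 7 proteins that close around the snRNA and give the particle its core. *Snrpf*, for SmF, had 73 counts (5.25 FPKM) in the TSA library and 1126 counts (80.1 FPKM) in the untreated library, 8.45-fold (6.67 to 10.9) lower and the lowest ratio of all 63 genes. *Snrpd1*, for SmD1, had 136 counts (9.51 FPKM) with TSA and 1670 counts (115 FPKM) without, 6.73-fold (5.65 to 8.07) lower. *Snrpg*, for SmG, was 5.86-fold lower and *Snrpe*, for SmE, 4.13-fold lower. *Snrpd2* and *Snrpd3* stood close together at 3.42-fold and 3.41-fold lower. *Snrpb*, for SmB and the gene with most counts in the family, was the least lower, with 779 counts (36.3 FPKM) with TSA and 3130 counts (144 FPKM) without, 2.20-fold (2.03 to 2.38) lower. The interval of *Snrpb* lies clear of those of the other 6 ring genes. Per length, the highest of the 7 stood 6.91-fold above the lowest in the TSA library and 3.91-fold in the untreated library. *Snrpb* held 25.6% (24.1 to 27.2) of the family's own counts with TSA and 15.7% (15.2 to 16.2) without, a share that needs no scaling between libraries.

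Proteins particular to U1 and U2 were lower as well. *Snrpa*, for protein A of U1, had 440 counts (16.4 FPKM) with TSA and 2716 counts (100.1 FPKM) without, 3.38-fold (3.06 to 3.75) lower, and *Snrpc*, for protein C of U1, which helps U1 grip the start of the intron, 264 counts (20.3 FPKM) and 1304 counts (99.2 FPKM), 2.71-fold (2.37 to 3.10) lower. On the U2 side *Snrpa1*, for protein A′ of U2, was 5.19-fold (4.48 to 6.04) lower and *Snrpb2*, for its partner B″, had 161 counts (7.66 FPKM) with TSA and 882 counts (41.5 FPKM) without, a ratio of 0.333 (0.280 to 0.394).

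SF3A and SF3B are the multi-protein parts of U2 that clamp the branch site, and their 9 genes differed in ratio. All 3 SF3A genes were called lower: *Sf3a2* had 235 counts (6.51 FPKM) with TSA and 2006 counts (54.9 FPKM) without, 4.68-fold (4.08 to 5.38) lower, *Sf3a1* was 4.51-fold and *Sf3a3* 3.03-fold lower. Of the 6 SF3B genes 3 were called. *Sf3b3*, for a large scaffold subunit and the gene with most counts in the family, had 893 counts (8.24 FPKM) with TSA and 8407 counts (76.7 FPKM) without, 5.16-fold (4.81 to 5.53) lower. *Sf3b1*, for the subunit that encloses the branch-site adenosine and is often mutated in human myelodysplasia, had 2904 counts (22.6 FPKM) with TSA and 5657 counts (43.6 FPKM) without. Its ratio was 0.937 (0.896 to 0.980) with TMM, and with total counts it was 1.93-fold below the untreated level, so neither scaling called it. The ratio between subunits needs no scaling: *Sf3b1* stood at 2.75 times (2.55 to 2.96) the FPKM of *Sf3b3* in the TSA library and at 0.568 times (0.549 to 0.588) in the untreated library. *Sf3b1* took 39.2% of the family's counts with TSA and 18.4% without. *Sf3b6*, for the small p14 subunit that touches the branch-site adenosine, had 420 counts (22.0 FPKM) and 1064 counts (55.2 FPKM), 1.39-fold (1.24 to 1.56) below the untreated level and not called, and neither was *Sf3b2* at 1.77-fold. Both were called lower with total counts, at ratios of 0.399 and 0.313. In all 8 of the 9 *Sf3* genes were lower with total counts, beside 48.7% of all genes tested.

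Of the 10 SR protein genes 7 were called lower with TMM and 8 with total counts, beside 27.4% and 48.7% of all genes tested. Their median log2 ratio was -1.38 with TMM. *Srsf1*, for the founding SR protein SF2/ASF, a proto-oncogene product, had 1207 counts (12.7 FPKM) with TSA and 9846 counts (102 FPKM) without, 4.47-fold (4.21 to 4.75) lower. *Srsf7*, for a relative with a zinc knuckle that also serves mRNA export, had 457 counts (9.69 FPKM) and 3592 counts (75.3 FPKM), 4.31-fold (3.91 to 4.76) lower, and *Srsf3*, for the smallest SR protein, was 3.87-fold lower. *Srsf2*, for SC35 of nuclear speckles, had 1707 counts (30.3 FPKM) with TSA and 8949 counts (157 FPKM) without, 2.87-fold (2.73 to 3.03) lower. *Srsf10*, for a protein that turns into a repressor when it loses phosphate, was 2.90-fold lower, *Srsf9* 2.37-fold and *Srsf6* 2.08-fold. *Srsf11* stood 1.79-fold below the untreated level with TMM, where it was not called, and was 3.22-fold lower with total counts, where it was.

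*Srsf5* and *Srsf4* stood apart from the rest of the family. *Srsf5*, for SRp40, a protein first cloned as a growth-response gene of regenerating rat liver, had 3421 counts (121 FPKM) in the TSA library and 4494 counts (157 FPKM) in the untreated library. It had the highest ratio of all 63 genes, 1.39 (1.33 to 1.45) with TMM and 0.770 (0.736 to 0.805) with total counts, so its direction depends on scaling and it was called with neither. Per length it was the most abundant of the 63 transcripts in the TSA library and ranked 10 in the untreated library, where *Hnrnpa1* ranked first. It took 28.2% (27.4 to 29.0) of the SR counts with TSA and 9.18% (8.92 to 9.44) without, while *Srsf1* took 9.96% (9.43 to 10.5) and 20.1% (19.8 to 20.5). The level of *Srsf5* was 9.52 times (8.91 to 10.2) that of *Srsf1* in the TSA library and 1.53 times (1.48 to 1.59) in the untreated library. *Srsf4*, for the long SR protein SRp75, had 810 counts (12.9 FPKM) with TSA and 1613 counts (25.4 FPKM) without, a ratio of 0.916 (0.841 to 0.998) with TMM. With total counts the ratio of *Srsf4* was 0.508 (0.466 to 0.553), just short of 2-fold lower, so neither scaling called it.

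**Figure D3:**
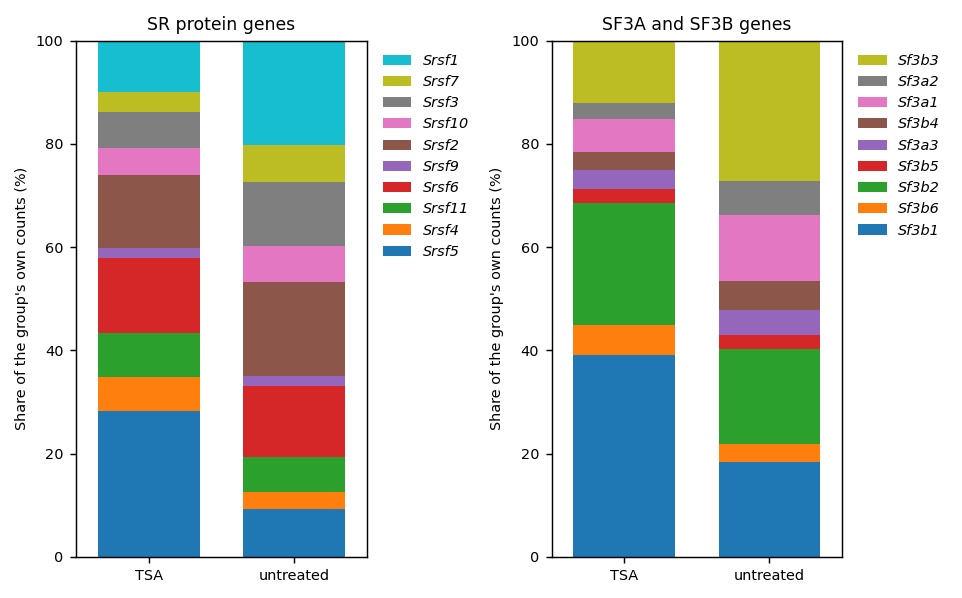
Share of each gene in the summed counts of its own family, in percent, for the SR protein genes (left) and the SF3A and SF3B genes (right), with the TSA library left of the untreated library in each panel. *Srsf5* took 28.2% of SR counts in the TSA library and 9.18% in the untreated library, and *Sf3b1* took 39.2% and 18.4% of SF3 counts.

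Among 20 hnRNP genes 15 were called lower with TMM, beside 27.4% of all genes tested, and all 20 with total counts, beside 48.7%. The median log2 ratio with TMM was -1.34. *Hnrnpa1*, for a splicing silencer that binds widely in introns and exons, stood out: it had 935 counts (27.9 FPKM) with TSA and 13058 counts (386 FPKM) without, 7.65-fold (7.16 to 8.19) lower. Its paralog *Hnrnpa2b1* had 3730 counts (74.98 FPKM) with TSA and 16859 counts (335 FPKM) without, 2.48-fold (2.39 to 2.57) lower. In the TSA library *Hnrnpa2b1* was thus at 2.69 times (2.50 to 2.89) the level of *Hnrnpa1*, and in the untreated library at 0.869 times (0.850 to 0.889). *Hnrnpl*, for a protein that reads CA repeats, had 1168 counts (23.9 FPKM) and 7986 counts (162 FPKM), 3.75-fold (3.52 to 3.99) lower. *Hnrnpu*, for the nuclear scaffold protein SAF-A and the hnRNP gene with most counts, had 3328 counts (18.6 FPKM) with TSA and 20530 counts (114 FPKM) without, 3.38-fold (3.26 to 3.51) lower. *Hnrnpk*, for a poly-C binding protein, was 2.08-fold (2.01 to 2.17) lower, and *Hnrnpc*, for the U-tract binding core hnRNP, 2.27-fold (2.15 to 2.39) lower.

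The 5 hnRNP genes not called with TMM were *Hnrnph3*, *Hnrnpa3*, *Hnrnpul1*, *Hnrnpul2* and *Hnrnph2*, at 1.68-fold to 1.28-fold below the untreated level. The H proteins read runs of G and include a close pair of paralogs. *Hnrnph2* had 792 counts (18.7 FPKM) with TSA and 1857 counts (43.4 FPKM) without, 1.28-fold (1.18 to 1.40) below the untreated level, whereas *Hnrnph1* was 3.23-fold (3.02 to 3.46) lower. *Hnrnph2* stood at 0.761 times (0.692 to 0.836) the level of *Hnrnph1* in the TSA library and at 0.302 times (0.287 to 0.318) in the untreated library. *Hnrnpul2*, for a relative of hnRNP U, had 1657 counts (16.9 FPKM) and 4082 counts (41.3 FPKM), 1.35-fold (1.27 to 1.43) below the untreated level. Just inside the threshold lay *Hnrnpk* and *Srsf6*, both at 2.08-fold lower, and just outside it *Prpf19* at 1.93-fold.

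The *Prpf* family had the smallest differences, with a median log2 ratio of -0.95 with TMM. Of its 13 genes 6 were called lower with TMM and 11 with total counts, beside 27.4% and 48.7% of all genes tested. Among the 5 *Prpf* genes of the tri-snRNP, the 3 for U4/U6 proteins had lower ratios than the other two, for proteins of U5. *Prpf31*, for the U4/U6 protein whose gene is mutated in human retinitis pigmentosa, had 216 counts (4.02 FPKM) with TSA and 1898 counts (34.9 FPKM) without, 4.81-fold (4.18 to 5.57) lower. *Prpf3* had 178 counts (2.65 FPKM) and 1149 counts (16.9 FPKM), 3.54-fold (3.02 to 4.17) lower, and its partner *Prpf4* was 2.93-fold (2.56 to 3.37) lower. *Prpf8*, for the large U5 protein that cradles the catalytic RNA, had 6114 counts (47.8 FPKM) with TSA and 17725 counts (137 FPKM) without, 1.59-fold (1.54 to 1.64) below the untreated level, and *Prpf6*, for the protein that bridges U5 and U4/U6, was at 1.17-fold (1.07 to 1.28) below it; neither was called with TMM and both were lower with total counts, at 2.87-fold and 2.12-fold. *Prpf19*, for the ubiquitin ligase of the activated spliceosome, had 1633 counts (15.1 FPKM) and 5763 counts (52.7 FPKM), 1.93-fold (1.83 to 2.04) below the untreated level. *Prpf38a*, *Prpf39* and *Prpf38b* were called lower, at 3.13-fold, 2.51-fold and 2.10-fold, and *Prpf4b*, for a kinase of tri-snRNP proteins, was at 1.65-fold and not called. At the other end *Prpf18*, for a factor of the second cutting step, had 567 counts (9.20 FPKM) with TSA and 961 counts (15.4 FPKM) without, a ratio of 1.08 (0.969 to 1.20), and *Prpf40b*, for a U1-associated protein, had 193 counts (2.46 FPKM) and 338 counts (4.25 FPKM), a ratio of 1.04 (0.869 to 1.25). With total counts these ratios were 0.597 and 0.577, so their direction depends on scaling too.

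**Figure D4:**
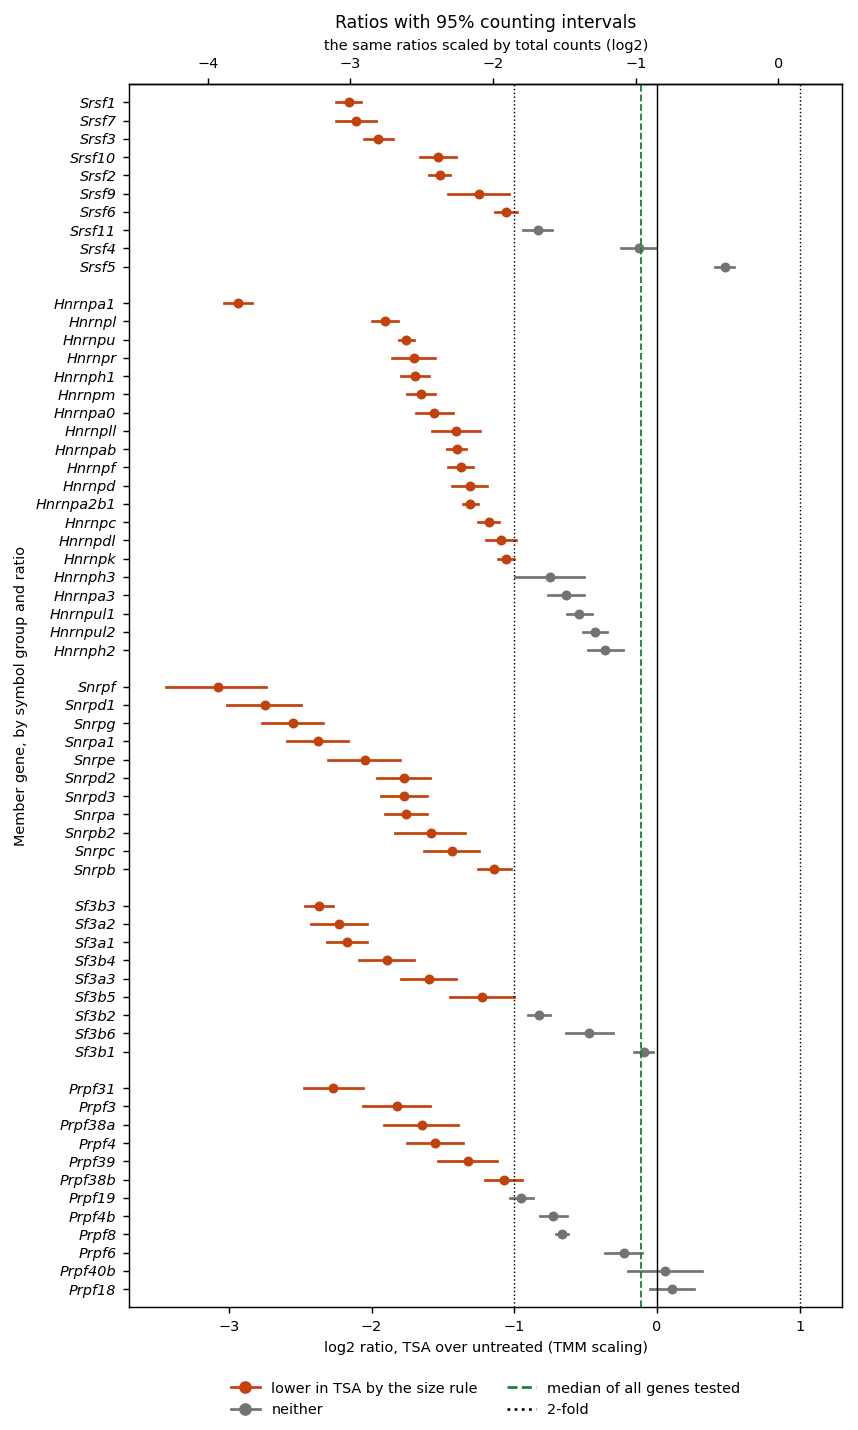
log2 ratio of 62 of the 63 genes, TSA over untreated with TMM scaling (lower axis) and with total counts (upper axis); lines are 95% intervals for counting error, the dashed line is the median of all genes tested and dotted lines mark 2-fold. All 11 *Snrp* genes lie past 2-fold lower, and *Srsf5*, *Prpf18* and *Prpf40b* alone lie above 0 with TMM, while with total counts no gene does. Of the 13027 genes tested 6910 had ratios below 1 with TMM and 9293 with total counts.

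Among the 63 genes those with short gene models were called lower more often, and family and length go together, since the Sm proteins are small. In the 25% of tested genes with the shortest gene models 18 of 20 splicing genes were lower, and in the 25% with the longest 7 of 14; over all genes tested the shares in these classes were 28.2% and 25.2%. The part that length has in the ratios was not tested. Exons of 11 of the 63 genes share at least 100 bases with another protein-coding gene in GENCODE M21. For 8 of them that gene lies on the other strand, and the strand setting of the counting is not given. The longest stretch on the other strand, 567 bases, joins *Snrpf* to *Ccdc38*, which itself had 2 counts with TSA and 5 without. *Prpf39* shares 317 bases with *Fkbp3* on the other strand, which had 252 counts with TSA and 3940 without. On the same strand the longest stretch was 1149 bases, and *Hnrnpul2* and *Snrpa1* share 360 and 148 bases. How reads from same-strand stretches were counted is not given. *Hnrnpa1* and several Sm genes have processed copies elsewhere in the mouse genome, and how reads shared with copies were counted is not given, so their ratios are less certain.

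The promoters of the genes at both ends of the range are shown because MYC binds the E-box CACGTG and because genes of this kind often start at CpG-rich promoters without a TATA box. RefSeq windows from 250 bases before to 50 after the gene start (GRCm38.p6) matched 55 of the 63 genes, with 72 windows in all. The 250 bases before the start are printed for the lowest ratios with a window, *Snrpf* (chr10:93589659-93589908, minus strand) and *Hnrnpa1* (chr15:103240147-103240396, plus strand), and for the highest, *Srsf5* (chr12:80945249-80945498, plus strand). Capitals mark CCAAT or its reverse complement ATTGG, the letters of the CCAAT box, and CCGGAAG or its reverse complement CTTCCGG, the core letters of ETS sites. Neither CACGTG nor TATAAA was found in these 3 stretches.
Snrpf: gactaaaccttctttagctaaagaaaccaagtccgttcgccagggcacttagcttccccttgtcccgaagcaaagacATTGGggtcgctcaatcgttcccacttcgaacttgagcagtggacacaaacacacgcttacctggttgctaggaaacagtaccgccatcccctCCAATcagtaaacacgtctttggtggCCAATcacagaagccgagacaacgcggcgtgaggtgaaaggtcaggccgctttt
Hnrnpa1: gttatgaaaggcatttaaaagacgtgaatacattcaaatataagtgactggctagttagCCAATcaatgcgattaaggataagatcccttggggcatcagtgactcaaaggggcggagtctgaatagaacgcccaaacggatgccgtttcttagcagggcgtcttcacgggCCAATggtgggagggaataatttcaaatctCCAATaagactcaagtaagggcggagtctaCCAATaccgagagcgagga
Srsf5: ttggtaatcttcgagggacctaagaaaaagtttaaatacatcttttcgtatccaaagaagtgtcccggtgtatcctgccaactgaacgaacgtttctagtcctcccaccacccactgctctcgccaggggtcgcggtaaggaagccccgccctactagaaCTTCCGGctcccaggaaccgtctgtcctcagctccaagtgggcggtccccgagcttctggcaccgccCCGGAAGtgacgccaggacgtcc
*Snrpf* held 3 CCAAT letters and *Hnrnpa1* 4, whereas *Srsf5* held none and 2 CCGGAAG instead. Over all windows the medians with and without these letters lay close together. CCAAT stood in the windows of 28 of 55 splicing genes (50.9%), beside 42.9% of the tested genes with a window, and the median log2 ratio was -1.53 for the 28 with it, of which 21 were called lower, and -1.44 for the 27 without it, of which 19 were. CCGGAAG stood in 20 of 55 (36.4%), beside 19.1%, with medians of -1.41 with it (12 of 20 called lower) and -1.53 without it (28 of 35). CACGTG stood in 9 of 55 (16.4%), beside 11.5%, with medians of -1.33 with it (6 of 9 called lower) and -1.54 without it (34 of 46). TATAAA stood in 6 of 55 (10.9%), beside 9.25%, and had the widest gap, with medians of -1.71 with it (6 of 6 called lower) and -1.38 without it (34 of 49). Both strands were searched. Letters in a window are a description and say nothing of binding.

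Splicing genes outside these families had median ratios below 1 in all 10 lists. With TMM, though, not every list was called lower more often than genes in general. Over the 145 such genes tested in 10 lists 76 were lower and 4 higher with TMM, and 130 lower and 1 higher with total counts, with a median log2 ratio of -1.03 with TMM. The shares of all genes tested were 27.4% lower and 26.0% higher with TMM, and 48.7% and 16.0% with total counts. List counts from here on are with TMM. LSm2 to LSm8 form the ring on U6 that parallels the Sm ring. The list of 10 LSm genes also holds *Lsm1*, *Lsm10* and *Lsm11*, which are outside that ring. Of the 10 genes 7 were lower, with a median of -2.26 over the list. *Lsm3* was 7.81-fold, *Lsm11*, of the U7 snRNP, 6.92-fold, *Lsm4* 6.73-fold and *Lsm2* 3.77-fold lower. Of 19 genes of snRNP assembly, whose products load the Sm ring onto snRNA, 13 were lower with a median of -1.54. *Gemin6* and *Gemin5*, of the SMN complex, were 9.16-fold (6.94 to 12.3) and 7.99-fold (7.11 to 9.01) lower, and *Strap* was at 1.43-fold below the untreated level and not called. *Prmt5*, for the methylase that marks Sm proteins before assembly, named after its value was seen, was 7.61-fold (6.76 to 8.61) lower.

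Other U1 and tri-snRNP genes were lower in 6 of 13 cases, with *Snrnp40*, of U5, at 8.62-fold, *Ppih* at 6.39-fold and *Snrnp70*, for the main U1 protein, at 2.77-fold, while *Snrnp200*, for the U5 helicase, was at 1.91-fold and not called. Of the Prp19 complex and related genes 9 of 17 were lower, with *Ppil1*, for a spliceosomal prolyl isomerase, at 11.8-fold (9.93 to 14.1) and *Aqr* and *Isy1* at 2.79-fold and 3.11-fold. Branch and 3′ splice site factors were lower in 6 of 12 cases, with *Cherp* at 3.43-fold and *U2af2*, for the large subunit that binds the polypyrimidine tract, at 2.83-fold, and *Sf1* at 1.49-fold not called. The exon junction complex list was lower in 7 of 9 cases, with *Magohb* at 6.31-fold, *Pnn* at 4.81-fold, *Eif4a3*, for its helicase anchor, at 2.57-fold and *Acin1* at 2.28-fold. The helicase list was lower in 3 of 11 cases with TMM, or 27.3%, a share near that of all genes tested. With total counts 10 of its 11 genes were lower, beside 48.7% of all genes tested. Helicase genes placed in other lists are not in these counts. Among them *Ddx23*, *Ddx46*, *Aqr* and *Eif4a3* were called lower with TMM and *Snrnp200* was not. In the helicase list *Ddx39*, listed elsewhere as *Ddx39a*, was 10.1-fold (8.69 to 11.7) lower and its export-factor paralog *Ddx39b* 3.20-fold. *Ddx5*, with most counts, was at a ratio of 1.20 and *Ddx17* at 1.44-fold below the untreated level, neither called.

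SR-related proteins and SR kinases were lower in 7 of 15 cases, with *Srpk1*, the kinase that phosphorylates SR proteins in the cytoplasm, at 4.10-fold, *Luc7l3* at 3.64-fold and the speckle scaffold gene *Srrm2* at 2.03-fold, and *Son* at 1.14-fold not called. Minor spliceosome genes were lower in 3 of 9 cases (33.3%), *Snrnp25* at 3.73-fold and *Pdcd7* at 3.24-fold among them, and 1 was higher; *Snrnp48* and *Zcrb1* were at 1.87-fold and 1.24-fold and not called. Other regulators were lower in 15 of 30 cases and higher in 3. *Ptbp1*, for the polypyrimidine tract binding protein that with hnRNP A1 and A2/B1 selects the M2 form of pyruvate kinase, had 1866 counts (35.1 FPKM) with TSA and 13313 counts (248 FPKM) without, 3.91-fold (3.72 to 4.11) lower. *Pcbp1*, for a poly-C binding protein, was 2.37-fold lower. *Khdrbs3*, for the SAM68 relative SLM2, had 313 counts (8.35 FPKM) and 83 counts (2.19 FPKM), 6.88-fold (5.39 to 8.88) higher. It was also higher with total counts, the sole gene of these lists that was. The other 3 genes higher with TMM, named after their values were seen, were *Celf2* at 3.27-fold, *Zrsr1*, an imprinted gene of the minor spliceosome, at 2.91-fold and *Mbnl1*, for a regulator that rises as tissues mature, at 2.63-fold. Counts per gene do not show splice isoforms, so splicing itself was not measured here.

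**Figure D5:**
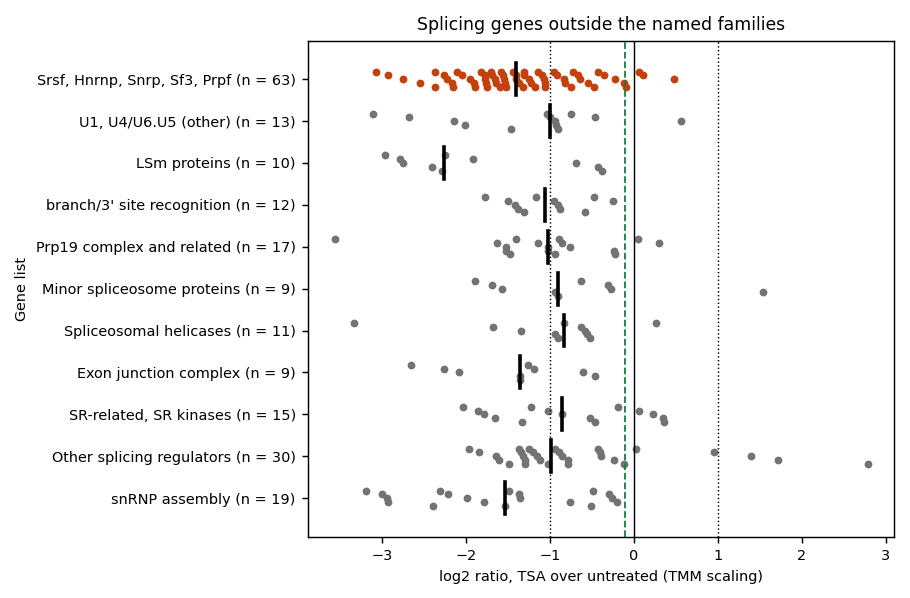
log2 ratio, TSA over untreated with TMM scaling, of each gene in the 5 families (top row, 63 genes) and in 10 lists of other splicing genes; black bars are list medians, the dashed line the median of all genes tested and dotted lines 2-fold. Medians run from -0.83 for helicases to -2.26 for LSm proteins, and the points past 2-fold higher are *Khdrbs3*, *Celf2*, *Zrsr1* and *Mbnl1*.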

How the data were processed

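PolyA RNA was sequenced from 1 TSA and 1 untreated liver library. The authors deposited raw counts per gene symbol, and FPKM, which divide the count by the length of the gene model and the total of the library: in each of 14271 genes counted in both libraries the length this implies was the same, within 0.1 base. The submitters' processing notes name Trimmomatic, Bowtie2, HISAT2 and DESeq. The genome build, the annotation, the counting tool and the use of strand are each not given in the sources used here. Every row of the tables named a gene.

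Library sizes were scaled by TMM (edgeR 4.0.16, R 4.3.3; factors 0.744 for TSA and 1.34 for untreated). Each group has 1 library, so no test was run and no p-value is given. Genes with at least 20 summed counts (13027) were compared, with exact conditional binomial (Clopper-Pearson) 95% intervals. Without molecular identifiers reads are not independent molecules, so intervals and the floor of 3 counts cover counting error only. Ratios, intervals and calls were tested on simulated Poisson counts in which few genes changed, as many up as down. Such counts cannot show how calls fare where many genes differ, as here, or where mice vary. Scripts ran in Python 3.11.15 with scipy 1.17.1, matplotlib 3.10.9, pandas 2.3.3 and numpy 2.4.6.

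Of the 63 genes, 1 is counted throughout and not reported here by itself. The genes and lists were chosen with earlier results of these data known. In each family full values are given for the 2 genes with most counts and, among genes with at least 50 summed counts, the 2 lowest and 2 highest ratios, besides pairs of paralogs; in other lists, the 2 with most counts and the 2 largest differences are named, mostly by their fold. Symbols were matched to GENCODE M21 and RefSeq names, with *Snu13* found as *Nhp2l1* and *Ddx39a* as *Ddx39*. Alternatives were total counts, DESeq2 1.42.0 size factors, upper quartiles, FPKM with 0.1 added, count minimums of 1, 100 and 1000, ratios of 1.5 and 4, and an interval bound past 2-fold.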

Additional observations from a re-analysis of the deposited data

How the results depend on the processing

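The median log2 ratio of the 63 genes, -1.41 with TMM, was -2.26 with total counts and -2.25 with deposited FPKM plus 0.1, since neither rescales for composition; DESeq2 size factors and upper quartiles gave -1.37 and -1.38. Relative to all genes tested it lay between -1.45 and -1.23 under the scalings, FPKM and the count minimums run. The number called lower was 45 with TMM, 58 with total counts and 12 at 4-fold, and the number called higher was 0 under each of these. With DESeq2 size factors and upper quartiles the single ratios of all 63 genes lay inside their counting intervals, and with total counts and FPKM those of all 63 lay outside. Counts of the other splicing lists moved by more than 1.5 times in 11 of 22 cases with total counts and in none with the other scalings. No paired analysis was possible because each group holds 1 library, and for the same reason no library could be left out. Depth is no limit for most ratios, but the TSA count of *Snrpf*, 73, leaves an interval from 6.67-fold to 10.9-fold.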
